A study of Macaca mulatta with 11 samples.

Results

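WNT, Notch and hedgehog signalling genes were measured in cumulus cells of rhesus monkeys, which enclose the oocyte. The genes were chosen by symbol: the WNT ligands, Frizzled (FZD), LRP and LGR receptors, R-spondins (RSPO), SFRP and DKK antagonists, Dishevelled (DVL), axin, APC, catenins (CTNN), TCF and LEF factors and TLE corepressors, with the NOTCH, JAG, DLL, MAML, HES and HEY genes and the hedgehog ligands, PTCH, HHIP, SMO and GLI genes. The rule found 88 genes among the 14132 that carried 1 symbol on the array, with 56 genes of the WNT pathway, 21 of the Notch pathway and 11 of the hedgehog pathway. A further 20 symbols that match the rule in RefSeq, among them CTNNB1, AXIN1, LEF1, NOTCH1, SHH and GLI3, are not analysed here. PTCHD1, PTCHD3, PTCHD4, HHIPL2, MAMLD1 and the adherens junction catenins CTNNA1, CTNNA2, CTNND1 and CTNND2 match by name and are not strict pathway components.

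WNT proteins bind Frizzled and LRP receptors on the cell surface, which lets beta-catenin reach the nucleus and act with TCF factors, while SFRP and DKK proteins block ligand or receptor from outside and R-spondins strengthen the signal through LGR receptors. Notch receptors are cleaved when a neighbouring cell presents a DLL or JAG ligand, and the freed part joins RBPJ and a Mastermind protein to switch on HES and HEY repressors. Hedgehog ligands bind PTCH1, which releases SMO and activates GLI factors, and HHIP binds and holds back the ligand. In mice, granulosa cells of growing follicles make Indian and desert hedgehog and the surrounding theca cells respond, granulosa cells carry NOTCH2, and loss of FZD4 impairs the corpus luteum.

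Expression was compared between 3 groups of arrays. The 4 pre-maturation samples (PM) came from immature cumulus-oocyte complexes of monkeys given follicle-stimulating hormone (FSH) alone. The 3 in vitro matured samples (IVM) came from complexes that were matured in culture after FSH. The 4 in vivo matured samples (VVM) came from complexes that matured in monkeys given FSH and then human chorionic gonadotropin. All 3 groups thus share FSH treatment. The labels do not tell whether replicates are different animals, and the tests cover the spread among the deposited samples, which may be technical.

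Values are log2 intensity, and each gene is represented by 1 probe set, the one with the highest mean over the 11 arrays. Array medians lay between 5.34 and 5.53, and 42 of the 88 genes had a mean under 6, close to that middle. Genes are called at an adjusted p under 0.05 in limma, with the adjustment over 52766 probe sets. Counts and calls refer to this representative probe set unless another is named. Where a group lies below the array medians, a fold against it is at best a lower bound. Array values are given in the order of the replicate numbers, differences with the standard error (SE) of the fit, n = 4 PM, 3 IVM and 4 VVM arrays. The number of arrays limits the precision.

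Several arrays stood apart, and these values bear on the results that follow. Cumulus and granulosa markers were present, with INHA between 13.05 and 14.01 and none of the 14 measured markers below the array median on all arrays. PM 1 carried oocyte transcripts, with NLRP5 at 8.45 against 3.13 to 3.25 on the other PM arrays, and the mean of the 11 measured oocyte genes ran from 4.94 to 7.08 in PM, from 5.17 to 5.37 in IVM and from 5.12 to 5.58 in VVM. VVM 2 and VVM 3 carried the most leukocyte transcripts, with LYZ at 7.62 and 9.51 against 5.10 and 4.79 on VVM 1 and VVM 4. VVM 1 and VVM 4 still lay above the PM and IVM arrays in LYZ (3.32 to 4.10 there). The same held for TYROBP, at 6.51 and 6.25 against 4.51 to 5.11. Of the 11 measured leukocyte genes, 6 were called higher and 2 lower in VVM than in PM. CSF1R was among the lower, with a mean of 10.10 in PM and 7.53 in VVM. The mean of the 11 genes ran from 5.52 to 7.16 in VVM, from 5.38 to 5.54 in PM and from 5.42 to 5.54 in IVM. The mean of the bacterial hybridization control probe sets was 9.55 to 9.98 in PM, 11.14 to 11.94 in IVM and 10.08 to 11.04 in VVM. The log2 ratio of 3' to 5' probe sets of the actin and GAPDH controls was 3.20 to 3.45 in PM, 3.67 to 4.36 in IVM and 3.44 to 3.90 in VVM. With the hybridization control level as a covariate, the called genes fell to 2 for IVM against VVM, 0 for IVM against PM and 10 for VVM against PM, and 17 genes kept an unadjusted p under 0.05 in limma for IVM against PM. With the 3' to 5' ratio as a covariate, 17, 15 and 21 genes were called. With the level of 4 leukocyte genes as a covariate, 8, 44 and 14 genes were called, the 8 being CTNND1, LGR4, SFRP4, PTCHD1, TLE1, TLE3, TLE5 and HEYL. Leaving out PM 1 and the VVM arrays 2 and 3 in 1 fit gave 13, 32 and 24 calls.

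Of the 88 genes, 19 differed between IVM and VVM, 9 higher and 10 lower in IVM, which is 21.6% against 16.7% of all 14132 genes (9.06% higher and 7.63% lower). Against PM, 43 genes changed in IVM, 25 up and 18 down, which is 48.9% against 45.9% of all genes (25.0% up and 20.9% down). In VVM 44 genes changed from PM, 24 up and 20 down, which is 50.0% against 39.8% of all genes (18.0% up and 21.8% down). All 3 shares lay somewhat above those of all genes, and these differences were not tested. Median differences of the 88 genes were 0.10, 0.20 and 0.13 for the 3 comparisons, beside 0.08, 0.12 and 0.04 for all genes. The 2 groups did not overlap array by array for 22, 45 and 43 of the 88 genes, which is 25.0%, 51.1% and 48.9% beside 28.6%, 50.3% and 41.9% of all genes. The balance of rises and falls depended on scaling: with each array centred on its median, which moved the group medians by 0.15 for IVM against PM and by 0.11 for VVM against PM, 16 genes rose and 21 fell in IVM, and 13 rose and 22 fell in VVM. The 2 comparisons with PM share the 4 PM arrays, so their values are given side by side and were not tested for overlap.

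**Figure D1:**
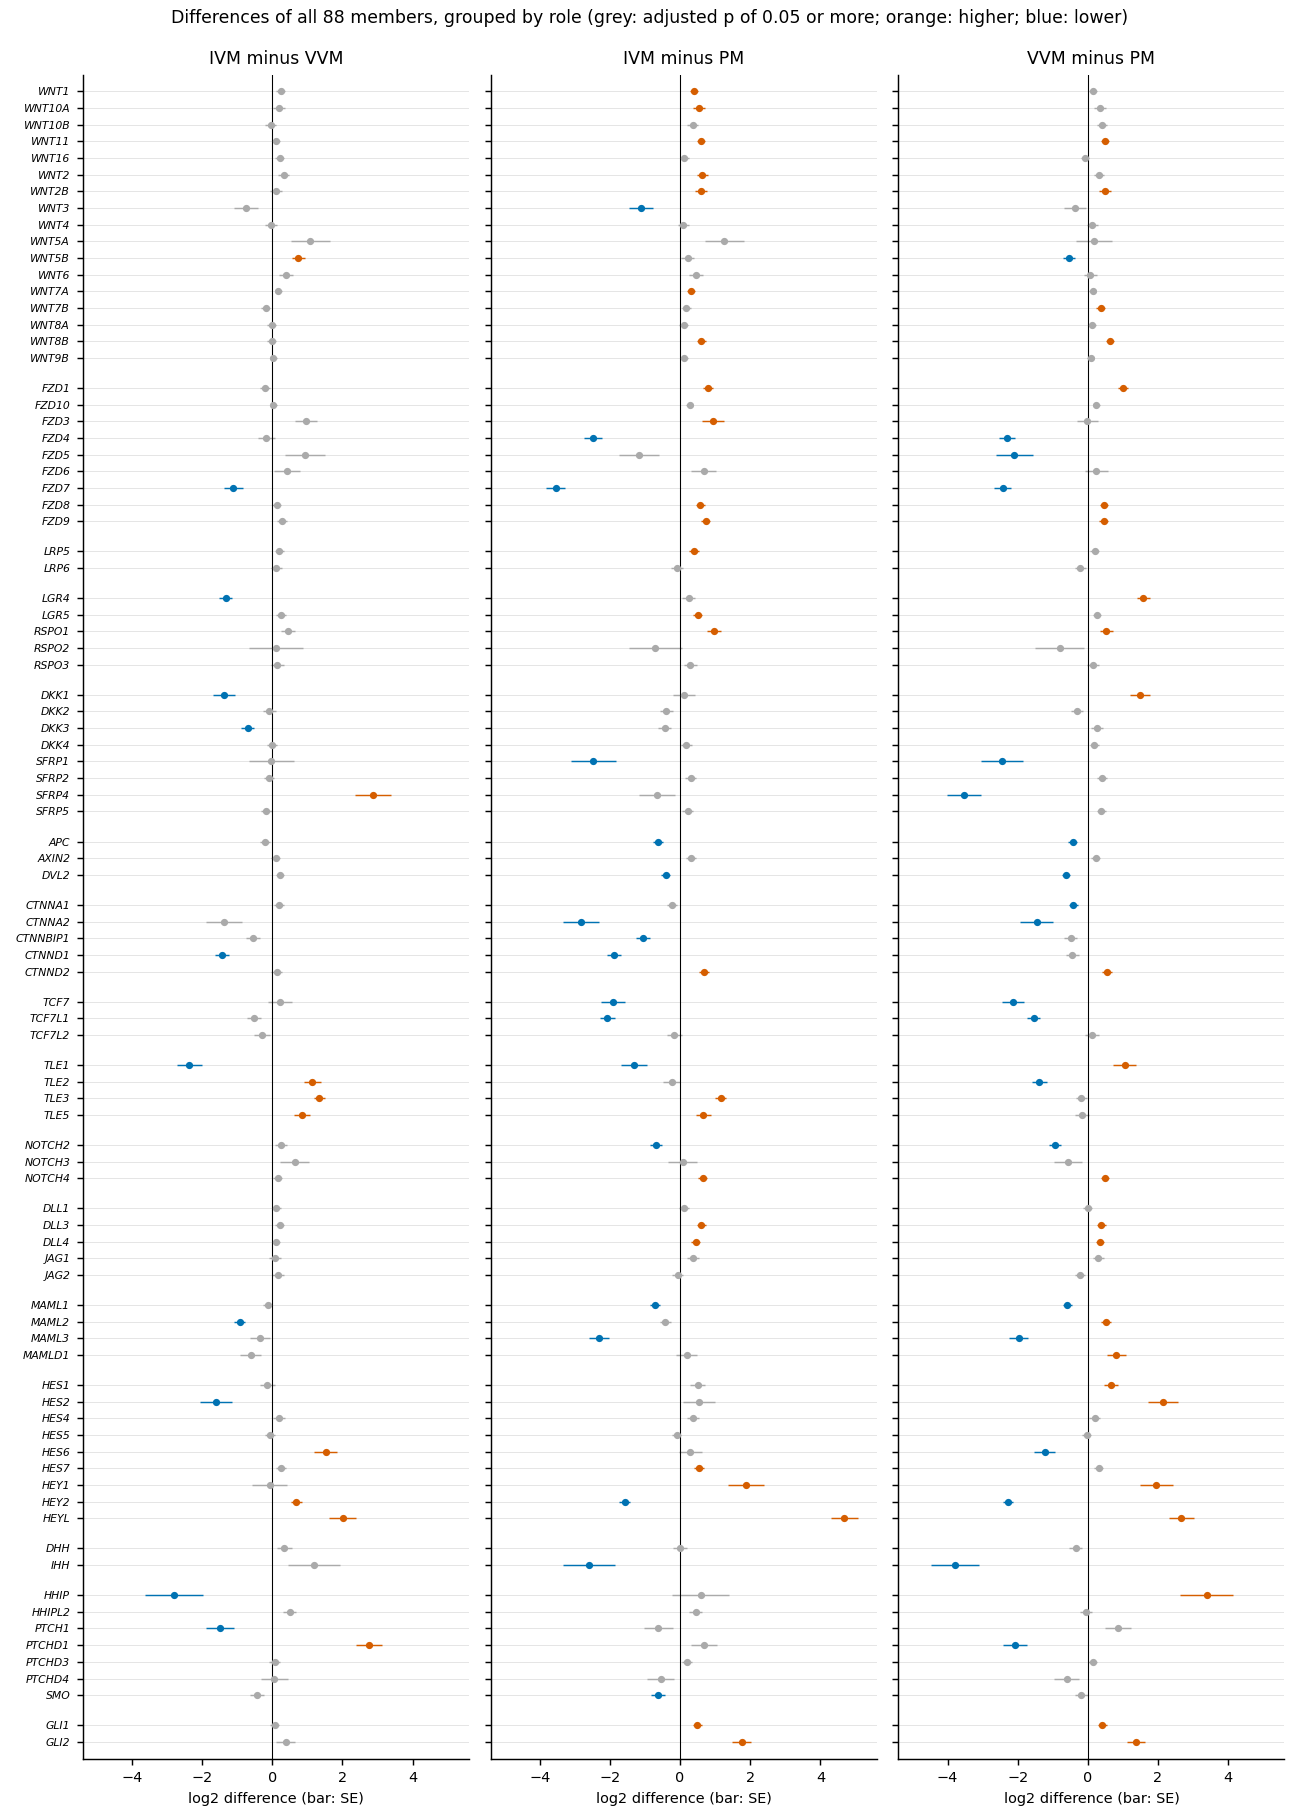
Log2 difference of each of the 88 genes (points, with SE as bars) for IVM minus VVM, IVM minus PM and VVM minus PM, grouped by role; orange points are higher and blue points lower at an adjusted p under 0.05, grey points did not pass. HEYL has the rise of 4.67 in IVM against PM, and IHH, SFRP4 and FZD7 lie at the lower end of the comparisons with PM.

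Among the 17 WNT ligands, WNT5B alone differed between IVM and VVM, 7 rose and 1 fell in IVM from PM, and 4 rose and 1 fell in VVM from PM. Shares of all genes were 16.7% between IVM and VVM, 25.0% up and 20.9% down in IVM, and 18.0% up and 21.8% down in VVM. The ligand rises were small, between 0.31 and 0.63, and 15 of the 17 ligands had a mean under 6. WNT8B was at 4.89, 4.95, 4.94 and 4.94 in PM, at 5.73, 5.58 and 5.30 in IVM and at 5.73, 5.49, 5.52 and 5.45 in VVM. All matured arrays thus lay above all PM arrays, by 0.60 ± 0.12 in IVM (adjusted p = 0.00283) and by 0.62 ± 0.11 in VVM (adjusted p = 0.0018). WNT1, WNT2, WNT2B, WNT7A, WNT10A and WNT11 were the other ligands that rose in IVM, and WNT2B, WNT7B and WNT11 the others that rose in VVM.

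WNT5B, a ligand of beta-catenin independent signalling, was the ligand that separated culture from in vivo maturation. It was at 7.62, 8.01 and 7.34 in IVM, at 6.82, 7.05, 7.08 and 6.70 in VVM and at 7.14, 7.73, 7.58 and 7.33 in PM. IVM arrays lay within or above the PM values and above all VVM arrays, by 0.74 ± 0.19 (adjusted p = 0.0261). VVM fell by 0.53 ± 0.17 from PM (adjusted p = 0.0373), with the ranges of the groups apart. Both calls rest on few arrays: leaving out IVM 1, IVM 2, VVM 1 or VVM 4 ended the IVM and VVM call (0.57 to 0.76, adjusted p up to 0.109), and the VVM and PM call without PM 2, PM 3, PM 4, VVM 1, VVM 2 or VVM 4 (-0.58 to -0.44, up to 0.0977).

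WNT3 was the ligand that fell. It was at 6.78, 5.99, 5.52 and 6.68 in PM, at 5.47, 5.19 and 4.71 in IVM and at 6.57, 5.56, 5.86 and 5.52 in VVM. IVM lay below the lowest PM array, whereas VVM and PM overlapped. The fall in IVM was 1.12 ± 0.34 (adjusted p = 0.0214), 1 of its 3 probe sets passed, and the call was lost without PM 1, PM 4, IVM 2 or IVM 3 (-1.15 to -0.92, adjusted p up to 0.0748). WNT5A differed by 1.08 ± 0.56 between IVM and VVM (adjusted p = 0.242) and by 1.25 ± 0.56 between IVM and PM (adjusted p = 0.0915), and WNT4, which in mice directs ovarian development, by -0.03 ± 0.16, 0.09 ± 0.16 and 0.12 ± 0.15 in the 3 comparisons, none of which passed.

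Frizzled receptors moved in both directions: in IVM 4 of 9 rose and 2 fell from PM, in VVM 3 rose and 3 fell, and FZD7 alone passed between IVM and VVM. The rises include FZD1, whose probe sets disagree. Of all genes, 25.0% rose and 20.9% fell in IVM, 18.0% rose and 21.8% fell in VVM, and 16.7% passed between IVM and VVM. FZD4, the receptor of WNT and norrin signals, was at 12.06, 11.65, 11.999 and 11.82 in PM, at 8.94, 9.17 and 10.07 in IVM and at 9.36, 9.95, 9.61 and 9.33 in VVM. Every matured array lay more than 1 log2 unit below every PM array, a fold of 5.6 for IVM (-2.49 ± 0.25, adjusted p = 4.52e-05) and 4.98 for VVM (-2.32 ± 0.23, adjusted p = 4.65e-05). Both probe sets of FZD4 fell in both comparisons, and IVM and VVM differed by -0.17 ± 0.25 (adjusted p = 0.714).

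FZD7, a WNT receptor of many stem and progenitor cells, fell further in culture than in vivo. It was at 7.12, 7.11, 7.33 and 7.60 in PM, at 3.95, 4.28 and 2.99 in IVM and at 4.61, 5.28, 4.66 and 4.87 in VVM. The 3 groups did not overlap, and both matured groups lay below the array medians. The difference from PM was -3.55 ± 0.28 in IVM (at least 11.7-fold lower, adjusted p = 1.29e-05) and -2.43 ± 0.26 in VVM (at least 5.41-fold lower, adjusted p = 6.35e-05), with both probe sets passing. IVM was lower than VVM by 1.11 on the log2 scale (-1.11 ± 0.28, adjusted p = 0.0248), but 1 of 2 probe sets passed and the call was lost without IVM 3, VVM 2 or VVM 4 (-1.11 to -0.74, adjusted p up to 0.0613).

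The other Frizzled calls were FZD3 (0.94 ± 0.32), FZD8 (0.57 ± 0.12) and FZD9 (0.73 ± 0.13), which rose in IVM from PM, with FZD8 (0.45 ± 0.12) and FZD9 (0.45 ± 0.12) also rising in VVM. The FZD3 probe set had a mean of 3.73, below the array medians, and the other FZD3 probe sets differed by 0.05 and -0.20 in IVM from PM (adjusted p = 0.841 and 0.335). FZD5 fell by 2.10 ± 0.53 in VVM (adjusted p = 0.0111) and was at -1.17 ± 0.57 in IVM (adjusted p = 0.119), and its other probe set was 1.19 higher in IVM than in VVM (adjusted p = 0.0182). FZD1 gave no settled direction: its representative probe set rose by 0.80 and 1.002 from PM in IVM and VVM, while others of its 4 probe sets fell by 1.55 and 0.68 in IVM, and 1 fell by 0.81 in VVM. Of the LRP co-receptors, LRP5 was at 5.84, 5.85, 5.90 and 5.98 in PM, at 6.16, 6.41 and 6.29 in IVM and at 6.19, 5.77, 6.28 and 6.10 in VVM. Its rise in IVM, 0.40 ± 0.13 (adjusted p = 0.0328), was lost with arrays centred on their medians and without PM 1, PM 2, PM 3, IVM 2 or IVM 3 (0.33 to 0.40, adjusted p up to 0.108). LRP6 passed in no comparison on its representative probe set (0.12 ± 0.16 between IVM and VVM), but its dimmer probe set was 0.70 higher in IVM than in VVM (adjusted p = 0.0477) and 0.96 higher than in PM (adjusted p = 0.0036).

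LGR4, a receptor through which R-spondins spare Frizzled from degradation, was higher after in vivo maturation than in either other group. It was at 10.63, 10.09, 9.80 and 10.56 in VVM, at 9.13, 8.92 and 8.76 in IVM and at 8.81, 8.65, 8.74 and 8.56 in PM. The VVM arrays lay above all others, by 1.58 ± 0.18 over PM (fold 2.99, adjusted p = 9.18e-05), and IVM stayed below VVM by 1.33 ± 0.19 (fold 2.52, adjusted p = 0.00171). IVM and PM differed by 0.25 ± 0.19 (adjusted p = 0.318), and of the 2 probe sets of LGR4 the representative one passed.

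RSPO1, an R-spondin ligand needed for ovarian development, rose in both matured groups at levels near or below the array medians. It was at 4.12, 4.23, 4.11 and 4.23 in PM, at 5.25, 5.55 and 4.64 in IVM and at 4.47, 4.88, 4.93 and 4.51 in VVM. No matured array reached down to PM, with differences of 0.98 ± 0.20 in IVM (adjusted p = 0.00293) and 0.53 ± 0.18 in VVM (adjusted p = 0.0469). The VVM call was lost with arrays centred on their medians and without PM 1, PM 2, PM 3, PM 4, IVM 1, VVM 2 or VVM 3 (0.45 to 0.55, adjusted p up to 0.117). RSPO2, which oocytes make in mice, was at 7.81 on PM 1, the array with oocyte transcripts, and between 3.82 and 4.51 on the other 10 arrays.

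Of the 8 secreted antagonists, SFRP4 was above and DKK1 and DKK3 were below their VVM level in IVM, 1 fell in IVM from PM, and 1 rose and 2 fell in VVM from PM. In the same 3 comparisons, 16.7%, 45.9% and 39.8% of all genes were called. SFRP4, which binds WNT ligands and is a luteinizing hormone responsive gene in rodent granulosa cells, was at 9.53, 11.04 and 8.46 in IVM, at 5.97, 6.71, 7.66 and 6.87 in VVM and at 10.24, 10.73, 10.14 and 10.22 in PM. VVM lay below both other groups on every array, with a fold of 7.32 between IVM and VVM (2.87 ± 0.52, adjusted p = 0.00518) and 11.5 between VVM and PM (-3.53 ± 0.48, adjusted p = 0.000289), while IVM and PM overlapped (-0.66 ± 0.52, adjusted p = 0.323). The representative probe set alone carried these calls: the other 3 differed by -0.23, 0.40 and 0.10 between IVM and VVM and by 0.71, 0.32 and -0.12 between VVM and PM, and none of these passed. In IVM from PM, however, 1 of the other 3, with a mean of 8.39, rose by 0.72 (adjusted p = 0.0345). The probe sets that disagreed with the representative included 1 of nearly equal mean level, 8.86 beside 8.87, so the direction of SFRP4 depends on which probe set is read.

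DKK1, which blocks the LRP co-receptors, rose after in vivo maturation, and IVM and PM overlapped (0.11 ± 0.31, adjusted p = 0.789). It was at 3.94, 5.28, 4.06 and 5.27 in VVM, at 3.42, 3.15 and 3.24 in IVM and at 3.03, 3.12, 3.14 and 3.34 in PM. The VVM arrays lay above all others, although every value was below the array medians. The rise was at least 2.78-fold (1.48 ± 0.29, adjusted p = 0.00278) over PM, and IVM was at least 2.58-fold lower than VVM (-1.37 ± 0.31, adjusted p = 0.0166), a call lost without IVM 2 (-1.30, adjusted p = 0.0657). DKK3, a divergent DKK protein, was 0.70 lower in IVM than in VVM (-0.70 ± 0.17, adjusted p = 0.0248), and 2 of its 6 probe sets passed. Its representative probe set did not pass against PM (-0.44 in IVM and 0.26 in VVM, adjusted p = 0.0626 and 0.243). Other DKK3 probe sets did: in IVM 2 fell, by 0.88 and 1.41, and 1 rose, by 0.50. In VVM 3 rose, by 0.74, 1.04 and 0.62. DKK3 thus has no settled direction in IVM from PM.

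SFRP1, another WNT-binding antagonist, fell in both matured groups with a wide spread. It was at 10.54, 10.54, 11.92 and 10.32 in PM, at 7.23, 7.89 and 9.95 in IVM and at 9.34, 7.27, 8.81 and 8.12 in VVM. Matured arrays lay below all PM arrays, although IVM 3 came within 0.5 of the lowest, and 2 of 3 probe sets passed in each comparison. The falls were 2.47 ± 0.65 in IVM (fold 5.55, adjusted p = 0.0116) and 2.44 ± 0.60 in VVM (fold 5.44, adjusted p = 0.0102), and the IVM call was lost without IVM 1 (-1.91, adjusted p = 0.056). DKK2, DKK4, SFRP2 and SFRP5 passed in no comparison on their representative probe sets, and all had means under 6. The second probe set of DKK2 fell by 1.86 in IVM and 1.63 in VVM (adjusted p = 0.00031 and 0.00047).

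Inside the cell, APC and DVL2 fell in both matured groups. APC, a scaffold of the complex that destroys beta-catenin, was at 8.03, 8.05, 7.80 and 8.14 in PM, at 7.38, 7.45 and 7.27 in IVM and at 7.59, 7.51, 7.34 and 7.84 in VVM. VVM 4 overlapped the PM values, and the falls were 0.63 ± 0.13 in IVM (adjusted p = 0.00383, 2 of 3 probe sets) and 0.43 ± 0.12 in VVM (adjusted p = 0.0218, 1 of 3 probe sets). The VVM call was lost without PM 1, PM 2, PM 4, VVM 2 or VVM 3 (-0.42 to -0.36, adjusted p up to 0.0623).

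DVL2, which relays the Frizzled signal, was at 8.64, 8.72, 8.62 and 8.52 in PM, at 8.08, 8.33 and 8.22 in IVM and at 7.91, 7.89, 7.88 and 8.27 in VVM. All matured arrays lay below all PM arrays, by 0.41 ± 0.12 in IVM (adjusted p = 0.0214) and 0.64 ± 0.12 in VVM (adjusted p = 0.00179). Without PM 2 or IVM 1 the IVM call was lost (-0.38 to -0.35, adjusted p up to 0.0807). AXIN2, a target gene and inhibitor of beta-catenin signalling, differed by 0.31 ± 0.14 in IVM and 0.22 ± 0.13 in VVM from PM on its representative probe set, and neither passed (adjusted p = 0.095 and 0.226). Of its other 3 probe sets, 1 fell in both groups, by 1.16 and 1.01 (adjusted p = 0.000246 and 0.000387), and 1 rose in IVM by 0.64 (adjusted p = 0.009), so AXIN2 has no settled direction either.

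CTNND1, the p120 catenin that holds cadherins at the membrane, was lower in culture than in vivo. It was at 8.68, 8.22 and 8.85 in IVM, at 10.15, 10.33, 9.65 and 9.94 in VVM and at 10.61, 10.68, 10.45 and 10.13 in PM. IVM lay below both other groups, which overlapped, with a fold of 2.71 against VVM (-1.44 ± 0.20, adjusted p = 0.00151, 2 of 3 probe sets) and 3.7 against PM (-1.89 ± 0.20, adjusted p = 6.3e-05, 3 of 3 probe sets). VVM and PM differed by -0.45 ± 0.19 on this probe set (adjusted p = 0.0895), while the other 2 probe sets fell in VVM, by 0.94 and 1.45 (adjusted p = 0.0138 and 0.000143). The call against VVM was lost without the _s_at and _x_at probe sets, which can match several transcripts.

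CTNNA2, an alpha-catenin known from neurons, also fell in both groups. It was at 7.35, 5.88, 4.94 and 6.95 in PM, at 3.59, 3.40 and 3.36 in IVM and at 5.33, 4.41, 4.09 and 5.45 in VVM. PM spread widely and overlapped VVM, whereas IVM lay below every other array, by at least 7.09-fold against PM (-2.83 ± 0.51, adjusted p = 0.0016). The fall in VVM was 1.46 ± 0.47 (adjusted p = 0.0371) and was lost without PM 1, PM 4, VVM 2 or VVM 3 (-1.32 to -1.10, adjusted p up to 0.102). CTNNBIP1, an inhibitor of beta-catenin binding to TCF, fell by 1.05 ± 0.21 in IVM (adjusted p = 0.00248).

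Of the 3 TCF factors, the nuclear partners of beta-catenin, 2 fell in both matured groups by their representative probe sets. The probe sets of the third, TCF7L2, disagreed. Of all genes, 20.9% fell in IVM and 21.8% in VVM. TCF7 was at 7.74, 7.81, 6.95 and 8.29 in PM, at 5.70, 5.39 and 6.24 in IVM and at 6.10, 5.92, 5.14 and 5.09 in VVM. TCF7L1, a TCF that acts largely as a repressor, was at 9.33, 8.41, 8.88 and 9.09 in PM, at 6.79, 7.12 and 6.65 in IVM and at 7.24, 7.25, 7.33 and 7.68 in VVM. For both genes every matured array was below every PM array. TCF7 fell 3.79-fold in IVM (-1.92 ± 0.34, adjusted p = 0.00142) and 4.38-fold in VVM (-2.13 ± 0.32, adjusted p = 0.000518), with 1 of 3 probe sets passing. TCF7L1 fell 4.21-fold in IVM (-2.07 ± 0.21, adjusted p = 4.66e-05) and 2.92-fold in VVM (-1.55 ± 0.19, adjusted p = 0.000179). The representative probe set of TCF7L2 was at -0.17 ± 0.22 in IVM and 0.13 ± 0.20 in VVM and did not pass. Of its 6 probe sets, however, 4 fell in IVM from PM, by 0.90, 1.81, 1.38 and 1.03, 2 fell in VVM, by 0.89 and 0.58, and 2 were lower in IVM than in VVM (-0.78 and -0.87, adjusted p = 0.0212 and 0.0267).

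All 4 measured TLE genes differed between IVM and VVM, where 16.7% of all genes were called. TLE proteins are Groucho corepressors that TCF, HES and other factors recruit, and TLE5 is a short form that lacks the repressor repeats. TLE1 was at 7.65, 7.36 and 6.93 in IVM, at 9.70, 9.63, 10.56 and 8.82 in VVM and at 8.78, 7.95, 8.93 and 8.86 in PM. TLE1 was thus lowest in IVM on every array, with a fold of 5.13 between IVM and VVM (-2.36 ± 0.36, adjusted p = 0.00246, 2 of 3 probe sets). From PM it moved in opposite directions, by -1.31 ± 0.36 in IVM (adjusted p = 0.0148) and 1.05 ± 0.34 in VVM (adjusted p = 0.035). The IVM call was lost without IVM 3 (-1.12, adjusted p = 0.0516), and the VVM call with arrays centred on their medians and without PM 1, PM 2, PM 4, VVM 1, VVM 2 or VVM 3 (0.75 to 1.12, adjusted p up to 0.0909). A further TLE1 probe set rose by 0.76 in IVM from PM (adjusted p = 0.002).

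TLE2 and TLE3 ran the other way. TLE2 was at 6.34, 6.77 and 7.11 in IVM, at 5.39, 5.72, 5.47 and 5.79 in VVM and at 6.64, 7.59, 6.91 and 6.79 in PM. It fell 2.62-fold in VVM (-1.39 ± 0.22, adjusted p = 0.000766) and was 2.21-fold higher in IVM than in VVM (1.14 ± 0.24, adjusted p = 0.0105), while IVM and PM overlapped (-0.24 ± 0.24, adjusted p = 0.424). TLE3 was at 8.92, 9.50 and 9.30 in IVM, at 7.76, 7.72, 8.16 and 7.94 in VVM and at 8.20, 7.97, 8.22 and 7.93 in PM. IVM alone was raised, 2.54-fold over VVM (1.34 ± 0.16, adjusted p = 0.000692, 3 of 4 probe sets) and 2.23-fold over PM (1.16 ± 0.16, adjusted p = 0.000338, 2 of 4 probe sets). In VVM from PM it was at -0.19 ± 0.15 (adjusted p = 0.373), while 2 of the other probe sets fell, by 0.85 and 0.77. The higher TLE3 in IVM than in VVM passed under every alternative setting run. TLE5 was 0.85 ± 0.22 higher in IVM than in VVM (adjusted p = 0.0281) and 0.67 ± 0.22 higher than in PM (adjusted p = 0.0302).

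**Figure D2:**
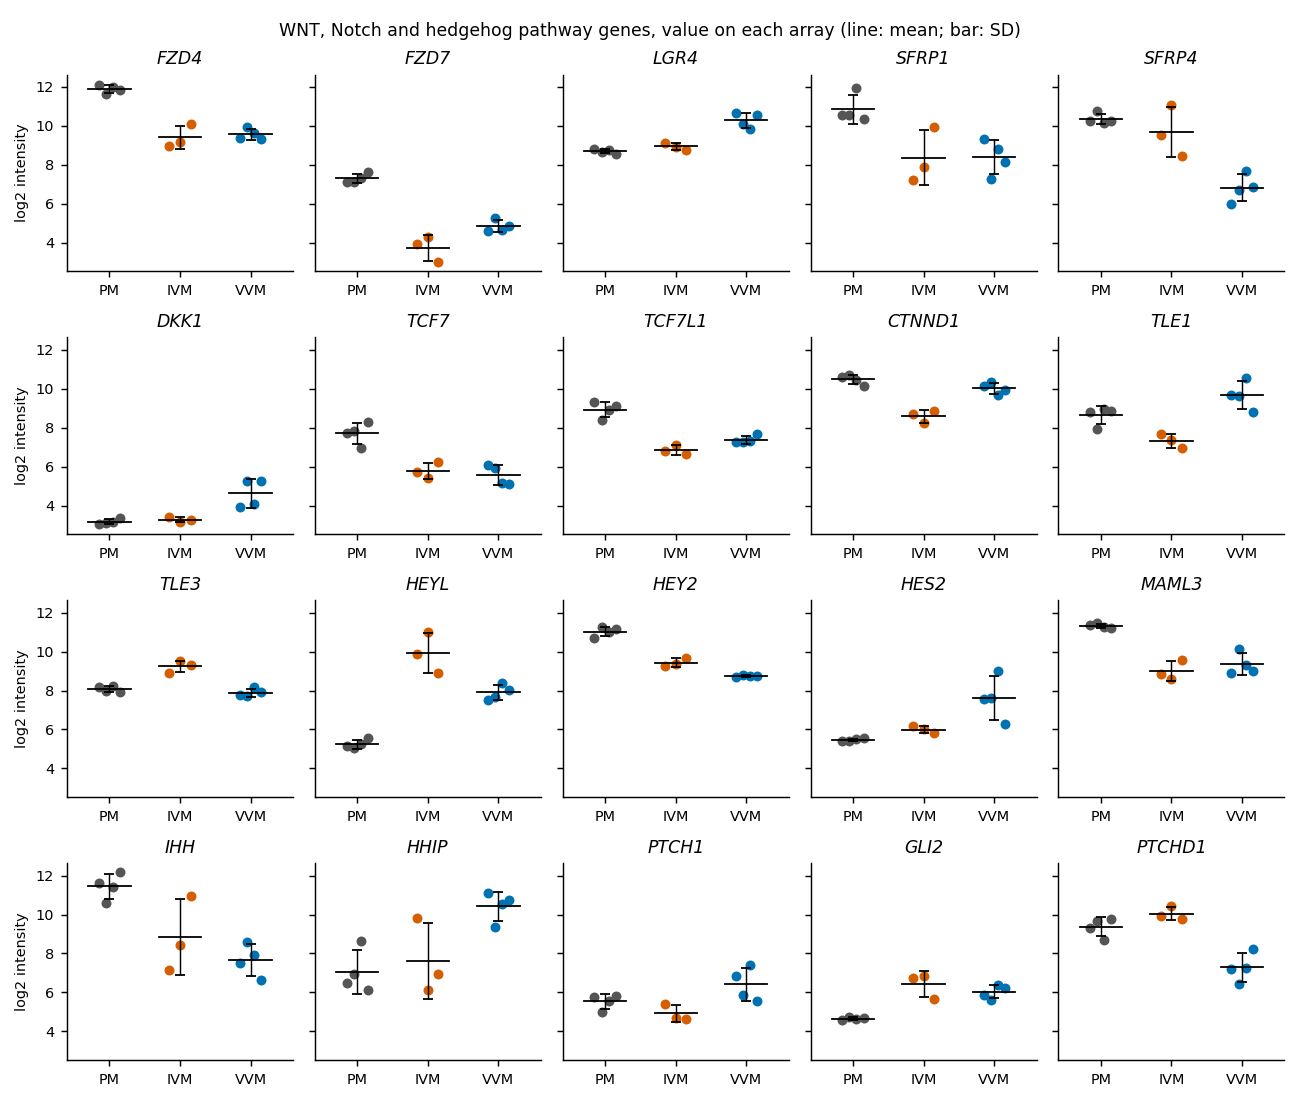
Log2 intensity on each array of 20 of the 88 genes, by group, with the mean as a line and the SD as a bar (n = 4 PM, 3 IVM and 4 VVM arrays). The points of FZD4, TCF7L1 and HEY2 fall from PM to both matured groups without overlap, TLE1 and LGR4 have their highest means in VVM, and HEYL is highest in IVM.

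Among the Notch genes, no receptor or ligand passed between IVM and VVM. The calls of that comparison, 3 higher and 2 lower of 21 genes beside 9.06% and 7.63% of all genes, all lay among the nuclear proteins. NOTCH2 was at 11.19, 11.69, 11.24 and 11.50 in PM, at 10.98, 10.64 and 10.51 in IVM and at 10.69, 10.35, 10.18 and 10.63 in VVM. All matured arrays lay below all PM arrays, by 0.69 ± 0.18 in IVM (adjusted p = 0.01) and 0.94 ± 0.16 in VVM (adjusted p = 0.00136), and 4 of the 5 probe sets fell in each. The IVM call was lost under quantile normalization (-0.48, adjusted p = 0.0634), cyclic loess (-0.48, adjusted p = 0.0707) and the 3' to 5' ratio as a covariate. NOTCH4, the receptor known from endothelium, rose by 0.64 ± 0.12 in IVM and 0.49 ± 0.11 in VVM (adjusted p = 0.00224 and 0.0078). NOTCH3 passed in no comparison (-0.57 ± 0.39 in VVM from PM).

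Of the 5 Notch ligands, DLL3 and DLL4 rose slightly in both groups and the representative probe sets of JAG1, JAG2 and DLL1 did not pass. Of all genes, 25.0% rose in IVM and 18.0% in VVM. DLL3, a ligand that acts inside the same cell as an inhibitor, was at 5.82, 6.03, 5.83 and 5.94 in PM, at 6.76, 6.28 and 6.50 in IVM and at 6.44, 6.29, 6.30 and 6.14 in VVM. The groups did not overlap with PM, with rises of 0.60 ± 0.13 in IVM (adjusted p = 0.00431, 1 of 2 probe sets) and 0.39 ± 0.12 in VVM (adjusted p = 0.0317). The VVM rise was lost with arrays centred on their medians and without PM 1, PM 3, PM 4, VVM 1, VVM 2 or VVM 3 (0.34 to 0.40, adjusted p up to 0.0823). DLL4 rose by 0.44 ± 0.12 in IVM (adjusted p = 0.014) and 0.34 ± 0.11 in VVM (adjusted p = 0.0404). The mean of the 9 measured endothelial genes ran from 5.37 to 5.67 in PM, from 5.36 to 5.51 in IVM and from 5.36 to 6.02 in VVM. This mean covers opposed changes from PM, with 2 genes called higher and 1 lower in IVM, and 3 higher and 1 lower in VVM. VWF rose by 2.32 in VVM (adjusted p = 0.00354). ERG was the gene that fell, by 3.67 in IVM and 2.63 in VVM (adjusted p = 0.000314 and 0.00167). The part of endothelial transcripts in the rises of NOTCH4 and DLL4 was not tested. JAG1, the ligand that oocytes present in mice, was at 0.38 ± 0.17 and 0.29 ± 0.16 from PM on its representative probe set (adjusted p = 0.0936 and 0.182). Its other 2 probe sets fell, by 0.82 and 1.14 in IVM (adjusted p = 0.0134 and 0.0063) and by 0.89 and 1.18 in VVM (adjusted p = 0.0072 and 0.0041), all at levels below the array medians, so JAG1 has no settled direction.

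The Mastermind coactivators, which complete the Notch complex on DNA, split by gene. MAML3 was at 11.35, 11.45, 11.25 and 11.21 in PM, at 8.86, 8.59 and 9.55 in IVM and at 8.91, 10.14, 9.32 and 9.01 in VVM. Every matured array was more than 1 log2 unit below PM, a fold of 4.97 in IVM (-2.31 ± 0.29, adjusted p = 0.000163, 2 of 2 probe sets) and 3.92 in VVM (-1.97 ± 0.27, adjusted p = 0.000288, 1 of 2 probe sets). MAML1 was at 9.93, 10.37, 10.08 and 10.14 in PM, at 9.23, 9.34 and 9.65 in IVM and at 9.46, 9.63, 9.43 and 9.65 in VVM. It also fell without overlap, by 0.72 ± 0.14 in IVM (adjusted p = 0.00235) and 0.58 ± 0.13 in VVM (adjusted p = 0.00576).

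MAML2 was the Mastermind gene that separated IVM from VVM. It was at 10.16, 9.93 and 9.92 in IVM, at 10.54, 10.86, 11.18 and 11.15 in VVM and at 10.39, 10.57, 10.36 and 10.37 in PM. IVM lay below and VVM mostly above the PM arrays, with IVM lower than VVM 1.91-fold (-0.93 ± 0.16, adjusted p = 0.00389). From PM, IVM was at -0.42 (adjusted p = 0.0509), which passed with arrays centred on their medians (-0.57, adjusted p = 0.019). The rise in VVM, 0.51 ± 0.15 (adjusted p = 0.0212), was lost with arrays centred on their medians and without PM 1, PM 3, PM 4, VVM 3 or VVM 4 (0.43 to 0.50, adjusted p up to 0.0604). Its other probe set was at 0.41 between IVM and VVM (adjusted p = 0.655) and rose by 1.54 in IVM from PM (adjusted p = 0.0346), so the 2 probe sets of MAML2 disagree. MAMLD1, a Mastermind-like protein, rose by 0.80 ± 0.27 in VVM (adjusted p = 0.0415).

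Among the 9 HES and HEY repressors, the usual targets of Notch, 3 lay above and 1 below VVM in IVM, 3 rose and 1 fell in IVM from PM, and 4 rose and 2 fell in VVM from PM. Shares of all genes were 9.06% above and 7.63% below, 25.0% up and 20.9% down, and 18.0% up and 21.8% down. HEYL was at 5.16, 5.03, 5.24 and 5.57 in PM, at 9.87, 10.98 and 8.92 in IVM and at 7.54, 7.69, 8.38 and 8.04 in VVM. The groups were fully apart and IVM was the highest. HEYL rose at least 25.5-fold in IVM (4.67 ± 0.38, adjusted p = 1.64e-05) and at least 6.32-fold in VVM (2.66 ± 0.36, adjusted p = 0.000267), and IVM was 4.04-fold above VVM (2.01 ± 0.38, adjusted p = 0.00698). The other HEYL probe set rose less, by 1.05 in IVM and 0.83 in VVM (adjusted p = 0.001 and 0.002), and differed by 0.22 between IVM and VVM (adjusted p = 0.449).

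HEY2 ran opposite to HEYL. It was at 10.70, 11.24, 10.996 and 11.14 in PM, at 9.27, 9.34 and 9.69 in IVM and at 8.67, 8.80, 8.73 and 8.77 in VVM. Again no groups overlapped, but PM was the highest and VVM the lowest. HEY2 fell 3.0-fold in IVM (-1.59 ± 0.15, adjusted p = 2.93e-05) and 4.84-fold in VVM (-2.27 ± 0.14, adjusted p = 3.24e-06), with 2 of 2 probe sets in each, and was 1.61-fold higher in IVM than in VVM (0.69 ± 0.15, adjusted p = 0.012, 1 of 2 probe sets).

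HEY1, the third HEY repressor, rose in both groups from levels below the array medians. It was at 4.11, 4.25, 4.07 and 4.55 in PM, at 6.71, 6.82 and 4.83 in IVM and at 6.85, 5.10, 6.85 and 5.99 in VVM. Matured arrays lay above all PM arrays but varied, with IVM 3 and VVM 2 closest to PM. The rise was at least 3.67-fold in IVM (1.88 ± 0.50, adjusted p = 0.0126) and at least 3.87-fold in VVM (1.95 ± 0.46, adjusted p = 0.00851), and the IVM call was lost without IVM 1 or IVM 2 (1.53 to 1.58, adjusted p up to 0.0595).

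HES2 and HES6 separated the matured groups in opposite directions. HES2 was at 7.56, 7.62, 9.003 and 6.26 in VVM, at 6.17, 6.03 and 5.80 in IVM and at 5.40, 5.42, 5.51 and 5.54 in PM. VVM was above both other groups on every array, with VVM 3, an array with leukocyte transcripts, the highest and VVM 4 near IVM. The rise in VVM was 4.41-fold (2.14 ± 0.42, adjusted p = 0.00293, 2 of 2 probe sets). IVM was 3.06-fold lower than VVM (-1.61 ± 0.45, adjusted p = 0.0427), a call lost without any single PM or IVM array, VVM 1 or VVM 2 (-1.70 to -1.51, adjusted p up to 0.114). The other HES2 probe set differed by 0.11 between IVM and VVM (adjusted p = 0.731). It rose by 0.58 in IVM from PM (adjusted p = 0.0188), where the representative was at 0.53 (adjusted p = 0.366).

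HES6, which inhibits HES1, was at 6.11, 6.38, 6.26 and 5.97 in VVM, at 7.18, 7.47 and 8.44 in IVM and at 6.80, 7.52, 8.10 and 7.22 in PM. VVM was below all other arrays, whereas IVM and PM overlapped. HES6 was 2.87-fold higher in IVM than in VVM (1.52 ± 0.32, adjusted p = 0.0117) and fell 2.34-fold in VVM from PM (-1.23 ± 0.30, adjusted p = 0.00944). HES1, the most widely used Notch target, rose by 0.64 ± 0.20 in VVM (adjusted p = 0.0296) and was at 0.50 ± 0.21 in IVM (adjusted p = 0.0819), HES7 rose by 0.54 ± 0.14 in IVM (adjusted p = 0.0114), and HES4 and HES5 passed in no comparison on their representative probe sets, although the other HES5 probe set rose by 0.45 in IVM (adjusted p = 0.0262).

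Among the 11 hedgehog genes the ligand IHH fell in both groups, while HHIP rose only in the comparison of VVM with PM. IHH was at 11.59, 10.61, 11.40 and 12.16 in PM, at 7.14, 8.46 and 10.94 in IVM and at 7.49, 8.59, 7.93 and 6.62 in VVM. VVM lay below every PM array, but IVM 3 lay within the PM range and far from the other IVM arrays. The fall was 13.8-fold in VVM (-3.79 ± 0.69, adjusted p = 0.00194) and 6.04-fold in IVM (-2.59 ± 0.75, adjusted p = 0.018), with 2 of 2 probe sets in each, and the IVM call was lost without IVM 1 or IVM 2 (-2.40 to -1.74, adjusted p up to 0.0798). IVM and VVM differed by 1.19 ± 0.75 (adjusted p = 0.341). DHH, the other measured ligand, was at -0.01 ± 0.21 in IVM and -0.35 ± 0.19 in VVM and did not pass.

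HHIP, which sequesters hedgehog ligands and is itself a target of the pathway, was at 11.08, 9.37, 10.54 and 10.73 in VVM, at 9.83, 6.14 and 6.93 in IVM and at 6.48, 6.95, 8.63 and 6.13 in PM. VVM lay above all PM arrays, and IVM 1 alone among the IVM arrays reached the VVM range. HHIP rose 10.4-fold in VVM (3.38 ± 0.76, adjusted p = 0.00628, 3 of 3 probe sets). Its fold of 6.96 between IVM and VVM (-2.80 ± 0.82, adjusted p = 0.0495) lay close to the threshold. It was lost with arrays centred on their medians and without PM 1, PM 2, PM 4, IVM 2, IVM 3, VVM 1, VVM 3 or VVM 4 (-2.80 to -2.05, adjusted p up to 0.198).

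PTCH1, the ligand receptor that restrains SMO and a target of the pathway, followed HHIP in direction between IVM and VVM. It was at 5.43, 4.71 and 4.64 in IVM, at 6.82, 5.89, 7.39 and 5.54 in VVM and at 5.79, 4.98, 5.58 and 5.82 in PM. IVM lay below every VVM array, at least 2.79-fold (-1.48 ± 0.40, adjusted p = 0.036, 1 of 2 probe sets), and both overlapped PM. The call was lost without PM 3, IVM 2, IVM 3, VVM 1 or VVM 3 (-1.48 to -1.16, adjusted p up to 0.125), and VVM and PM differed by 0.87 ± 0.37 (adjusted p = 0.099).

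SMO, the transmembrane activator of the pathway, was at 8.73, 8.91, 8.52 and 8.82 in PM, at 7.91, 8.15 and 8.28 in IVM and at 8.49, 8.53, 8.09 and 9.08 in VVM. IVM lay below all PM arrays while VVM overlapped both groups, and the fall in IVM was 0.63 ± 0.20 (adjusted p = 0.0284). It was lost without PM 1, PM 2, PM 4, IVM 1 or IVM 2 (-0.65 to -0.53, adjusted p up to 0.105). PTCHD1, named for its patched domain and known from neurons, was at 9.94, 10.43 and 9.76 in IVM, at 7.22, 6.45, 7.27 and 8.24 in VVM and at 9.33, 9.66, 8.69 and 9.79 in PM. VVM lay below both other groups, 6.72-fold below IVM (2.75 ± 0.37, adjusted p = 0.00138) and 4.21-fold below PM (-2.07 ± 0.35, adjusted p = 0.00111). PTCHD3, PTCHD4 and HHIPL2 passed in no comparison.

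Both measured GLI factors rose in both groups, while 25.0% of all genes rose in IVM and 18.0% in VVM. The GLI factors are the transcription factors at the end of the pathway. GLI2, its main activator, was at 4.58, 4.73, 4.65 and 4.67 in PM, at 6.76, 6.86 and 5.64 in IVM and at 5.88, 5.63, 6.37 and 6.23 in VVM. No matured array reached down to PM, where values were below the array medians, and the rise was at least 3.39-fold in IVM (1.76 ± 0.27, adjusted p = 0.000589) and at least 2.59-fold in VVM (1.37 ± 0.25, adjusted p = 0.00186), on 1 of 2 probe sets. GLI1, whose transcription follows pathway activity, was at 6.16, 6.22, 6.19 and 5.98 in PM, at 6.61, 6.76 and 6.50 in IVM and at 6.54, 6.72, 6.66 and 6.28 in VVM. The GLI1 rises were small, 0.49 ± 0.13 in IVM (adjusted p = 0.0121) and 0.41 ± 0.12 in VVM (adjusted p = 0.0229), and the VVM call was lost with arrays centred on their medians and without PM 4, VVM 2 or VVM 3 (0.36 to 0.38, adjusted p up to 0.067). The mean of the 6 measured theca genes ran from 5.78 to 6.63 in PM, from 7.21 to 7.52 in IVM and from 7.52 to 7.88 in VVM, with STAR, which cumulus cells express as well, among them. CYP17A1, the defining theca gene, was between 4.10 and 5.04 on all arrays, below the array medians, and rose by 0.53 in IVM (adjusted p = 0.0226). NR2F2, another of these genes, rose by 1.45 in VVM to a mean of 8.35 (adjusted p = 0.0094). ANPEP went the other way in VVM from PM (-0.91, adjusted p = 0.0038), and ENPEP and TCF21 passed in no comparison. STAR rose by 5.72 in IVM and 6.70 in VVM, far more than the other theca genes, and so weighs most in the rise of the mean. The part of theca transcripts in the GLI rises was not tested.

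The direction of change followed the level of the probe set. Among the 42 genes with a mean under 6, 15 rose and 3 fell in IVM from PM, beside 25.6% rises and 6.74% falls among all 5135 genes of that range, and 10 rose and 2 fell in VVM, beside 15.8% and 7.17%. Among the 46 brighter genes, 10 rose and 15 fell in IVM, beside 24.8% and 29.0% of all 8997 brighter genes, and 14 rose and 18 fell in VVM, beside 19.3% and 30.1%. Between IVM and VVM, 3 of the dim genes were called, all lower in IVM, beside 4.67% of all dim genes, and 16 of the brighter ones, 9 higher and 7 lower, beside 23.5%. Median differences of the dim genes were 0.30 in IVM and 0.23 in VVM from PM, and they were 0.16 and 0.12 with each array centred on its median. Renormalizing also ended calls: under quantile normalization or cyclic loess, the IVM calls of SMO, DVL2, APC, GLI1 and TLE1 and the VVM calls of APC and WNT5B against PM were lost under at least 1 of them, as were LRP5 in IVM and DLL3 and RSPO1 in VVM against PM, and HHIP in IVM against VVM. The small rises of dim genes, most WNT ligands, RSPO1 and FZD9 among them, thus ran in the direction most frequent among all dim genes.

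**Figure D3:**
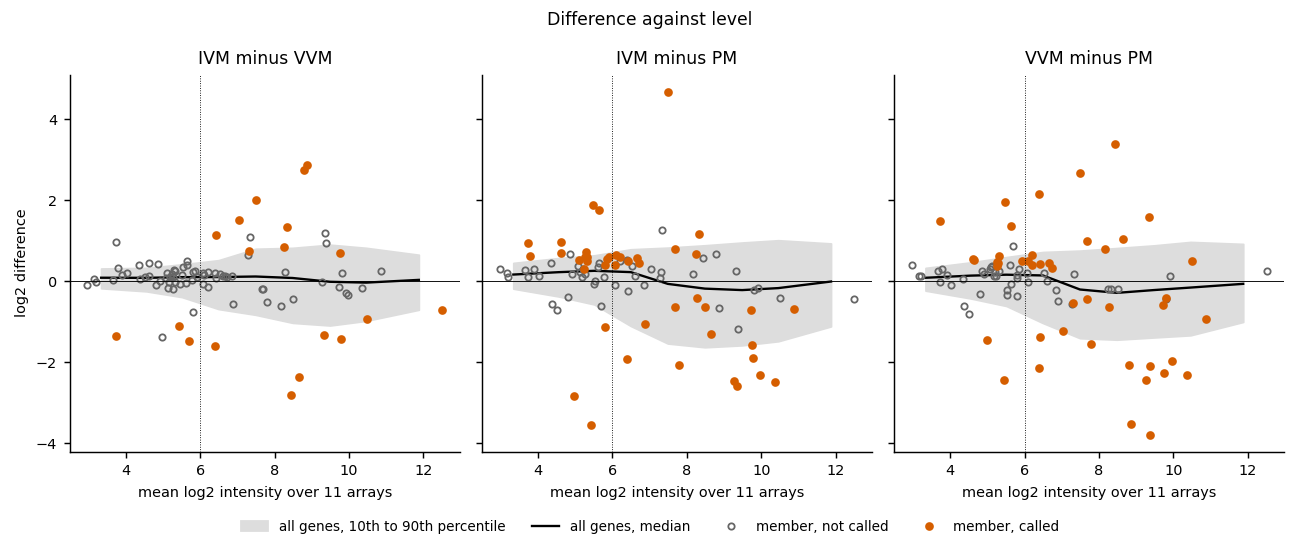
Log2 difference against mean log2 intensity over the 11 arrays for the 88 genes (circles, orange where called), with the median (line) and the range from the 10th to the 90th percentile (grey) of all 14132 genes; the dotted line marks a mean of 6. Below 6 most called genes lie just above 0 in the comparisons with PM, and above 6 both directions occur.

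Genes with more than 1 probe set gave a check of the calls. Of 14 called genes with several probe sets in IVM against VVM, all probe sets passed in the same direction for 1 gene, HHIP, the representative alone passed for 9, and no other probe set passed in the opposite direction. In IVM against PM all passed for 7 of 22 and the representative alone for 10, and for 2 genes, TLE1 and FZD1, another probe set passed in the opposite direction. In VVM against PM all passed for 10 of 25 and the representative alone for 13, and FZD1 had an opposite one. Among genes whose representative did not pass, another probe set passed for 5 of 29 in IVM against VVM. The same held for 12 of 21 in IVM against PM and 8 of 18 in VVM against PM. A gene counted as not called can thus still change on another probe set. By their representative probe sets, 16.7%, 45.9% and 39.8% of all genes were called in the same comparisons. Agreement between probe sets was counted for the pathway genes only, so a difference from other genes was not tested. With the mean of a gene's probe sets in place of the representative, the IVM and VVM calls of MAML2, HEY2, HES2, PTCH1 and FZD7 and the IVM and PM calls of SFRP1 and TLE1 were lost.

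**Figure D4:**
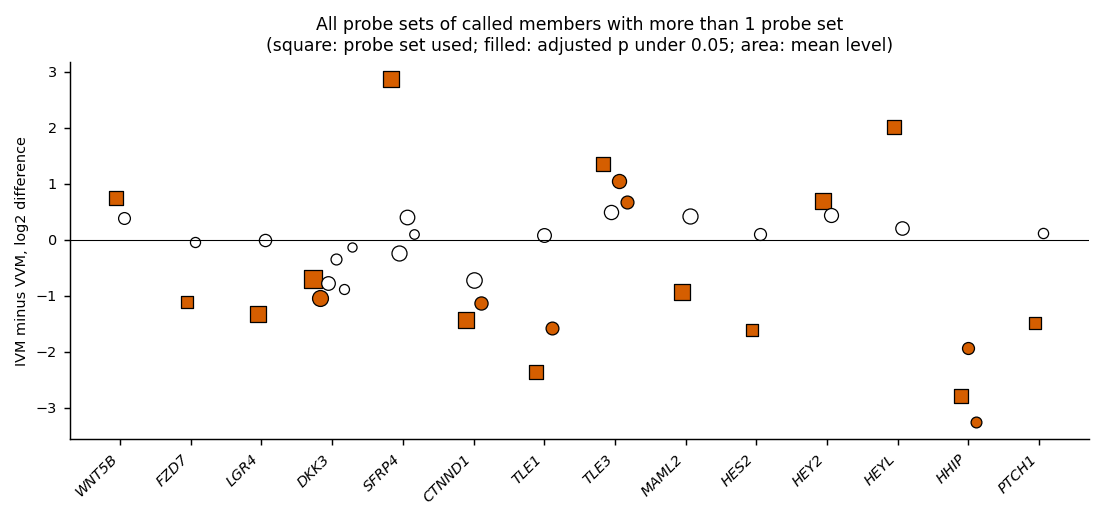
Log2 difference of IVM minus VVM for every probe set of the 14 called genes that have more than 1; squares are the probe sets used, filled symbols have an adjusted p under 0.05, and the symbol area grows with the mean level. All 3 probe sets of HHIP pass below 0 and 3 of 4 of TLE3 above 0, while for SFRP4 and HEYL the probe set used stands apart from the others.

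Genes that act beside these in the same pathways were read from fixed lists chosen with earlier results known. Of 39 measured WNT genes, 3 lay above and 3 below VVM in IVM, 10 rose and 13 fell in IVM from PM, and 8 rose and 7 fell in VVM from PM, shares of 15.4%, 59.0% and 38.5% beside 16.7%, 45.9% and 39.8% of all genes. PORCN, which attaches the lipid that WNT ligands need, was at 8.20 ± 0.55 (SD) in PM, 11.85 ± 0.76 in IVM and 10.33 ± 0.51 in VVM, a rise of 3.65 ± 0.39 in IVM (adjusted p = 6.68e-05). WLS, which carries WNT ligands to the surface, was at 7.88 ± 0.91, 9.97 ± 0.81 and 7.32 ± 0.45, and was higher in IVM than in VVM by 2.66 ± 0.48 (adjusted p = 0.00562). The WNT secretion genes PORCN and WLS were therefore both highest in IVM, where PORCN exceeded VVM by 1.52 ± 0.39 (adjusted p = 0.0299), a call that ended on leaving out IVM 1, IVM 2, VVM 1 or VVM 4 (1.13 to 1.53, adjusted p up to 0.104).

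APCDD1, a membrane inhibitor of WNT signalling, rose by 4.57 ± 0.55 in IVM (adjusted p = 0.000133) and 6.05 ± 0.51 in VVM (adjusted p = 1.91e-05) from a PM mean of 6.18 ± 0.24. AMER1, which brings APC to the membrane, fell in VVM by 2.10 ± 0.23 (adjusted p = 8.08e-05) and was 1.74 ± 0.25 higher in IVM than in VVM (adjusted p = 0.0017). TNKS2, a tankyrase that marks axin for degradation, fell by 2.51 ± 0.31 in IVM (adjusted p = 0.000144). In VVM the surface proteoglycan GPC4 rose by 2.96 ± 0.36 (adjusted p = 0.000145) and the WNT5A receptor ROR1 by 2.56 ± 0.38 (adjusted p = 0.000541). TNKS2, GPC4 and ROR1 were also called in the other matured group against PM, in the same direction, and not between IVM and VVM. With each array centred on its median, GPC4 and ROR1 differed from PM by 1.51 and 1.61 in IVM (adjusted p = 0.0127 and 0.0131). TNKS2 differed by -2.01 in VVM (adjusted p = 0.000513).

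Of 25 measured Notch genes of the list, 3 lay above and 3 below VVM in IVM, 7 rose and 7 fell in IVM from PM, and 6 rose and 6 fell in VVM from PM. In all, 6, 14 and 12 of the 25 were called in the 3 comparisons, beside 16.7%, 45.9% and 39.8% of all genes. RBPJ, the DNA-binding partner of the Notch receptor, was at 12.22 ± 0.22 (SD) in PM, 10.02 ± 0.32 in IVM and 10.45 ± 0.16 in VVM. It fell by 2.19 ± 0.17 and 1.76 ± 0.16 (adjusted p = 1.3e-05 and 2.59e-05). The coactivators MAML1 and MAML3 and the receptor NOTCH2 also fell in the same arrays, the NOTCH2 call in IVM being lost on renormalizing. Other genes of these families did not share this pattern: MAML2 and MAMLD1 rose in VVM (0.51 and 0.80), NOTCH4 rose in IVM and VVM (0.64 and 0.49), and NOTCH3 passed in no comparison. MAML2 was, however, at -0.42 in IVM from PM (adjusted p = 0.0509). It passed there with each array centred on its median (-0.57, adjusted p = 0.019). DNER, a Notch ligand known from neurons, was 1.69 ± 0.32 higher in IVM than in VVM (adjusted p = 0.00626) and 2.002 ± 0.32 higher than in PM (adjusted p = 0.000702).

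Among the ubiquitin ligases that activate Notch ligands, MIB2 was 1.07 ± 0.22 higher in IVM than in VVM (adjusted p = 0.00915) and NEURL1B rose by 1.52 ± 0.12 in VVM (adjusted p = 1.51e-05). NEURL1B was also called higher in IVM than in PM and did not pass between IVM and VVM. With each array centred on its median, its rise in IVM was 0.98 (adjusted p = 0.00031). MIB1 fell by 1.51 ± 0.29 in IVM from PM (adjusted p = 0.00225) and was 1.10 lower than in VVM (-1.10 ± 0.29, adjusted p = 0.0323), the latter lost without any single IVM array, VVM 1, VVM 2 or VVM 4 (-1.23 to -0.91, adjusted p up to 0.103). ADAM10, the protease that cuts the receptor, rose by 1.53 ± 0.13 in VVM (adjusted p = 2.23e-05) on its brightest probe set, but its most variable probe set gave -0.01 (adjusted p = 0.979). The brightest probe set of ADAM10 was also called higher in IVM than in PM (0.95 with arrays centred on their medians, adjusted p = 0.000779). Its most variable probe set gave -1.24 in IVM.

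Of 22 measured hedgehog genes of the list, 2 were higher in IVM than in VVM, 4 rose and 4 fell in IVM from PM, and 4 rose and 6 fell in VVM from PM. Their shares were 9.09%, 36.4% and 45.5%, beside 16.7%, 45.9% and 39.8% of all genes. SCUBE3, of a family of secreted proteins that includes a releaser of hedgehog ligand, was at 10.62 ± 0.38 (SD) in PM, 7.88 ± 0.35 in IVM and 6.71 ± 0.05 in VVM. It fell by 2.74 ± 0.21 and 3.91 ± 0.19 (adjusted p = 1.15e-05 and 1.19e-06) and was 1.18 ± 0.21 higher in IVM than in VVM (adjusted p = 0.00479). GPR161, a ciliary receptor that represses the pathway, rose by 1.67 ± 0.34 in IVM and 1.97 ± 0.31 in VVM (adjusted p = 0.00293 and 0.000775). EVC2, a ciliary protein that passes on the SMO signal, fell by 1.04 ± 0.17 in IVM (adjusted p = 0.00094) and did not pass between IVM and VVM. With each array centred on its median, EVC2 also fell in VVM from PM (-0.70, adjusted p = 0.00723). KIF7, a ciliary kinesin that regulates GLI, fell by 0.85 ± 0.19 in VVM (adjusted p = 0.00524) and was 0.81 ± 0.20 higher in IVM than in VVM (adjusted p = 0.0246), the latter lost without IVM 2, VVM 1 or VVM 2 (0.52 to 0.80, adjusted p up to 0.0604).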

How the data were processed

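RNA of 11 cumulus cell samples was measured on Affymetrix Rhesus Macaque arrays after amplification of 50 ng of total RNA, per the labels' protocols. The deposited values are intensity on a linear scale, made by the authors with Expression Console and RMA, per the submitters' processing notes, with versions and settings not given in the sources used here. Their log2 was taken, with no pseudocount.

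After removal of 99 control probe sets, 52766 were tested in 1 model of 3 group means with limma 3.58.1 in R 4.3.3 and empirical Bayes moderation (residual df 8, prior df 3.3). Tests are two-sided, with p adjusted by Benjamini-Hochberg within each comparison. Of these probe sets, 24956 carried 1 symbol, 361 several and 27449 none in the array annotation, and all 88 genes matched RefSeq by gene identifier. Groups come from the sample titles. The fit was tested on simulated data.

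The genes and lists were chosen with earlier results of these data known. Array values are printed for the called gene with the largest absolute difference in each role and comparison and for the 5 largest in each pathway and comparison, and the 3 largest of the other pathway genes are named. FZD1, FZD5, DKK3, RSPO2 and other genes named outside this rule were chosen after their values were seen. Residuals of arrays with the same replicate number correlated between -0.107 and 0.101, so numbers were not paired. Signal over background and sequences were not used here. Alternatives covered normalization, filters, probe set choice, covariates and arrays left out.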

Additional observations from a re-analysis of the deposited data

Results flagged for a closer look

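With 2 groups of 4 arrays for each of the 88 genes, 176 sets of values were searched for an array far from the other 3 of its group, and 12 were found, where chance gives about 1 in 20. In PM, WNT5A was at 5.44 on PM 2 against 7.37 to 7.53 on the others, TLE1 at 7.95 on PM 2 against 8.78 to 8.93, and NOTCH4 at 5.53 on PM 2 against 5.79 to 5.84. RSPO2 was at 7.81 on PM 1 against 3.82 to 4.22, DLL4 at 6.36 on PM 1 against 6.52 to 6.53, HES5 at 6.30 on PM 1 against 6.05 to 6.09, and SFRP1 at 11.92 on PM 3 against 10.32 to 10.54. In VVM, WNT6 was at 4.71 on VVM 1 against 4.11 to 4.15, HES1 at 7.01 on VVM 1 against 6.25 to 6.35, and FZD5 at 9.55 on VVM 2 against 7.79 to 8.09. DVL2 was at 8.27 on VVM 4 against 7.88 to 7.91, and PTCHD4 at 3.84 on VVM 4 against 4.22 to 4.27.

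On its representative probe set, the change of TLE1 from PM had opposite signs in IVM and VVM, and both passed. The difference of the 2 changes is the IVM and VVM contrast, -2.36 on the log2 scale (adjusted p = 0.00246 in limma). Another probe set had the same opposite signs (-0.87 and 0.70), but a further one rose in both groups (0.76 and 0.68) and differed by 0.08 between them. The IVM call was lost without IVM 3, and the VVM call with arrays centred on their medians or without any of several single arrays.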

How the results depend on the processing

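Counts of called genes stayed within 1.5 times their values (19 between IVM and VVM, 43 between IVM and PM and 44 between VVM and PM) under median centring (18, 37, 35), quantile normalization (18, 32, 35), cyclic loess (18, 31, 33) and the replicate block (18, 35, 40), although same-numbered arrays did not deviate together. Counts moved further with the hybridization control level as a covariate (2, 0 and 10), the leukocyte covariate (8 for IVM against VVM and 14 for VVM against PM), the 3' to 5' ratio (15 for IVM against PM and 21 for VVM against PM), a fold of at least 2 (17 for IVM against PM and 23 for VVM against PM), a mean log2 of at least 6 (25 for IVM against PM, with 46 genes tested) and PM 1, VVM 2 and VVM 3 left out (24 for VVM against PM). Leaving out 1 array gave 12 (without IVM 2) to 17, 33 to 47 and 31 (without PM 1) to 48. These covariates differ between the groups, so their effects and those of the groups cannot be told apart in full. With the hybridization covariate IHH in IVM against PM turned to 0.39 and SFRP1 to 0.25. With the most variable probe set, MAML2 turned to 0.41 in IVM against VVM and 1.54 in IVM against PM, ADAM10 to -1.24 in IVM and -0.01 in VVM against PM, and WLS to 1.95 in VVM against PM. ADAM10 was at -0.27 in IVM against PM with the mean of its probe sets. Of 74 calls of the genes given array by array, 9 passed under every alternative run, and 22 were lost without some 1 array. The cause was not tested.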

Other observations

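IVM 3 was the culture-matured array that most often lay nearest to the pre-maturation level. Among the 43 genes called in IVM against PM, IVM 3 was nearest to the PM mean for 27 (62.8%), IVM 2 for 9 and IVM 1 for 7, beside 58.5% of all 6492 called genes for IVM 3. It shows in IHH (10.94 against 7.14 and 8.46 on IVM 1 and IVM 2), SFRP1 (9.95 against 7.23 and 7.89), HEY1 (4.83 against 6.71 and 6.82) and GLI2 (5.64 against 6.76 and 6.86), and FZD7 runs the other way (2.99 against 3.95 and 4.28). IVM 3 also had the lowest hybridization control level of the IVM arrays, 11.14 against 11.94 and 11.81, and its part in these values was not tested. Among the 44 genes called in VVM against PM, VVM 4 was nearest for 17 (38.6%), beside 30.2% of all 5622 called genes.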
